A study of Mus musculus with 4 samples.

Results

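The cytosolic ribosomal protein genes were taken as every gene of the array's annotation whose symbol starts with Rpl or Rps and a digit, together with Rplp0, Rplp1 and Rpsa, with the Rps6k kinases left out. Rplp2, Rpl10 and Rps27 are not analysed here. The rule found 69 genes among 19505 named genes, each with a single probe set. They comprise 31 genes of large subunit proteins, 22 of small subunit proteins, the 2 stalk genes Rplp0 and Rplp1, 11 paralogs or retrogenes, and 3 genes whose products are not proteins of the mature ribosome despite the symbol (Rpl7l1, Rps19bp1 and Rps23rg1). A gene counted as above the floor when its mean over the arrays reached the 40th percentile of all gene means, log2 4.67. That held for 66 of the 69 genes and for 11703 of all genes, and Rpl10l, Rpl3l and Rps23rg1 lay below it.

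The ribosome is built from a small subunit, which reads the mRNA, and a large subunit, which joins the amino acids. Its protein genes are among the most strongly and evenly expressed genes of any cell, and their products are made in matched amounts. Most of their mRNAs start with a run of pyrimidines, the 5′ terminal oligopyrimidine or TOP motif, through which mTOR and the RNA-binding protein Larp1 control their translation. An array measures the mRNA only, so this translational control is not visible in it. Because their levels are so even, several of them, Rplp0 among them, serve as reference genes in fat.

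RNA from the epididymal fat of male mice was hybridised to 4 Clariom S Mouse arrays. The groups were GW4869 with overload, GW4869 with sham surgery, vehicle (DMSO) with overload and vehicle with sham surgery, with 1 array each. GW4869 inhibits neutral sphingomyelinase and is used to reduce the shedding of extracellular vesicles, and overload was produced by synergist ablation, in which a muscle has to carry the load of its removed neighbours. The labels state no strain, age, dose, time after surgery or pooling of RNA. The series title concerns vesicles of overloaded muscle and lipolysis in fat. Overload against sham was therefore compared under each agent, and GW4869 with vehicle in each kind of surgery. With 1 array in a group there is no replicate check, no error and no p-value, and every difference below describes 2 arrays.

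The tissue label was borne out by mature adipocyte genes, of which 17 of 17 measured were above the floor on each array, with list medians of log2 16.89 (GW4869 overload), 17.14 (GW4869 sham), 16.98 (vehicle overload) and 16.63 (vehicle sham). Gene by gene, the adipocyte list had a median overload minus sham difference of -0.38 under GW4869 and 0.35 under vehicle. For GW4869 minus vehicle the median was 0.15 in sham and -0.61 in overload. Higher in these 4 comparisons were 2, 13, 14 and 1 of the 17 genes, against 46.9%, 64.2%, 67.2% and 47.0% of all genes above the floor. Markers of other tissues differed between the arrays. Of 19 epididymal epithelium genes, 18, 4, 2 and 11 were at or above the floor on GW4869 overload, GW4869 sham, vehicle overload and vehicle sham, and the log2 of their summed level was 20.17, 13.26, 8.36 and 17.82. Of 16 sperm and testis genes, 7, 2, 4 and 16 were at or above the floor on the same arrays, and the log2 of their summed level was 9.62, 8.39, 8.90 and 19.63. The epididymal glutathione peroxidase gene Gpx5 was under the floor on every array but GW4869 overload. Of 5 markers of the distal epididymis and vas deferens, 2, 5, 0 and 5 were at or above the floor. All 9 macrophage markers were above the floor on each array, and they had medians of 12.05 and 12.32 on the GW4869 overload and sham arrays, against 9.81 and 8.98 on the vehicle overload and sham arrays, and the log2 of their summed level was 17.11, 17.02, 15.70 and 15.11 in that order. Of 10 skeletal muscle genes, 3, 5, 4 and 5 were at or above the floor. In bulk tissue, fewer cells of a type and less RNA per cell cannot be told apart.

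Promoters of 56 of the 69 genes were found in the RefSeq table of GRCm38.p6, as the 250 bases before and 50 bases after each annotated start. The motif CCGGAAG, the core that ETS family factors bind, occurred on either strand in 37.5% of the 56 genes and in 9.93% of all 27025 genes of the table. Of the 15691 promoters whose genes are named on the array, 13.2% held it. The motif TCTCGCGA, an element of housekeeping promoters, occurred on either strand in 14.3% and 1.13%, and the pyrimidine run CTTTCC on the sense strand in 42.9% and 16.0%. The Myc-type E-box CACGTG occurred on either strand in 7.14% and 8.09%. These are matches of letters and not measured sites. The windows printed run from 120 bases before to 10 bases after the start, 5′ to 3′, with matches to any of these motifs in capitals. Rps6 and Rps28 show the TCTCGCGA element, which overlaps its own match on the other strand there, and Rpl15 shows the ETS core with a pyrimidine run at the start. Rplp0, Rpl37 and Rps26 are shown because they had some of the largest overload differences under GW4869. Rpl39 and its paralog Rpl39l are shown because they had different patterns over the arrays. The full promoters of Rpl39 and Rps26 also held CCGGAAG, and that of Rplp0 held CTTTCC, outside the windows printed. The windows lie at Rps6 at chr4:86857358-86857487 (minus strand), Rps28 at chr17:33824553-33824682 (minus strand), Rpl15 at chr14:18270977-18271106 (minus strand), Rplp0 at chr5:115559347-115559476 (plus strand), Rpl37 at chr15:5116493-5116622 (plus strand), Rps26 at chr10:128626497-128626626 (minus strand), Rpl39 at chrX:37085213-37085342 (minus strand) and Rpl39l at chr16:10170108-10170237 (plus strand).
Rps6: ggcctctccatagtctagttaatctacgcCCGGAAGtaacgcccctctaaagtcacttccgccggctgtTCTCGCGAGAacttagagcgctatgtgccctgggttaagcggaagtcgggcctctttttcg
Rps28: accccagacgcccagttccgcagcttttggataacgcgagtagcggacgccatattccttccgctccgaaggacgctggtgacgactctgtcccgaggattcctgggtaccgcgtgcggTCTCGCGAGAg
Rpl15: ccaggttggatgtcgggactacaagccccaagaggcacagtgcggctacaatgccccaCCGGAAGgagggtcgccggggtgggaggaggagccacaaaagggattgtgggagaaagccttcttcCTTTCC
Rplp0: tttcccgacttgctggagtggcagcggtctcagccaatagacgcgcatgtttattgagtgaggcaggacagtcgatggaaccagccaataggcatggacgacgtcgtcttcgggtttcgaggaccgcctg
Rpl37: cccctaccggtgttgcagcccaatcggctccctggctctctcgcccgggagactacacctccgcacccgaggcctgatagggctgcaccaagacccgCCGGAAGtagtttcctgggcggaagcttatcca
Rps26: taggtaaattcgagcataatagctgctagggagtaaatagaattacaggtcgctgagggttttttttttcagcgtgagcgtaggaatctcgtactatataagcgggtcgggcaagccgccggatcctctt
Rpl39: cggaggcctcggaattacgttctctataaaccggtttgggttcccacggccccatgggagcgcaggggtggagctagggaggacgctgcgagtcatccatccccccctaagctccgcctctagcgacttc
Rpl39l: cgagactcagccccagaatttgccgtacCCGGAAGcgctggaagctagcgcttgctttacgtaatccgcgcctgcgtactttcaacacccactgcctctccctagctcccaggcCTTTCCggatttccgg

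Ribosomal protein genes were highest on the GW4869 overload array. Of the 66 above the floor, 55 had their highest value there, which is 83.3%, against 26.7% of all genes above the floor. The remaining ones peaked on GW4869 sham (5 genes), vehicle overload (4) and vehicle sham (2), where 23.4%, 30.1% and 19.8% of all genes peaked. Of the 2 on vehicle sham, Rpl39l passed the floor only through that array. Vehicle overload was the lowest array for 31 genes and vehicle sham for 26, or 47.0% and 39.4%, against 18.8% and 45.9% of all genes. GW4869 sham was the lowest for 8 (all genes 13.0%) and GW4869 overload for 1 (all genes 22.3%). Relative to each gene's own mean over the arrays, the median ribosomal protein gene stood at 0.32 log2 units on GW4869 overload, -0.03 on GW4869 sham, -0.15 on vehicle overload and -0.14 on vehicle sham. The median of all genes on that scale was 0.00, 0.06, 0.04 and -0.20. The count of 55 stayed between 44 and 56 under the other scalings, filters and member sets tried. The GW4869 overload array also had the highest summed level of epididymal genes and, with GW4869 sham, of macrophage genes, and their part in this count was not tested.

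**Figure D1:**
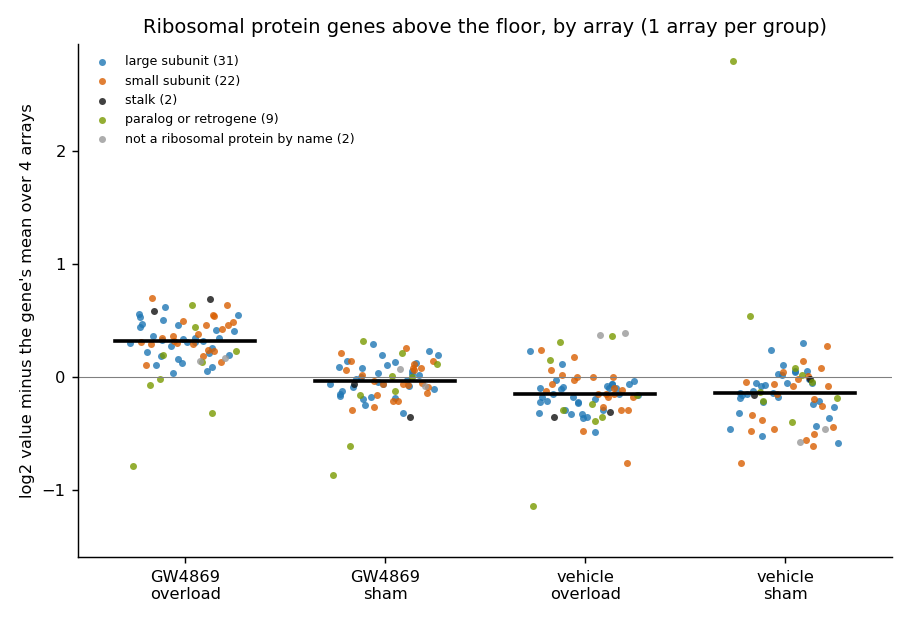
Each point is a ribosomal protein gene above the floor (66 genes), plotted as its log2 value minus its mean over the 4 arrays, by array, with colour for the protein's place and black bars for medians. The cloud on GW4869 overload lies above the others (median 0.32), and the point far above the rest on vehicle sham is Rpl39l.

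The genes varied little over the arrays. The range over the 4 arrays was under 1 log2 unit for 55 of the 66 genes, or 83.3%, against 56.4% of all genes above the floor, and the median range was 0.68 log2 units against 0.91. The 66 genes had array medians of 13.42 to 14.16, against 8.28 to 8.37 for all genes above the floor. The floor of 4.67 lies under the medians of the background probe sets (5.12 to 5.28). Ranges were not compared with those of genes of like level. Rps6, the small subunit protein that S6 kinases phosphorylate, had log2 values of 18.08 on GW4869 overload, 17.92 on GW4869 sham, 17.76 on vehicle overload and 17.66 on vehicle sham. Rps23, of the decoding centre, had 18.53 on GW4869 overload, 18.48 on GW4869 sham, 18.30 on vehicle overload and 18.38 on vehicle sham. Rpl11, which with Rpl5 carries the small ribosomal RNA of the large subunit and can bind Mdm2, had 16.27 on GW4869 overload, 16.15 on GW4869 sham, 16.14 on vehicle overload and 16.11 on vehicle sham. All 3 were highest on GW4869 overload and within 0.42 log2 units over the arrays.

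Under GW4869, ribosomal protein genes were higher in overload than in sham by a median of 0.34 log2 units, while the median of all genes above the floor was -0.04. A positive difference was seen for 60 of 66 genes, or 90.9%, against 46.9% of all genes. At least 1.5-fold higher were 13 genes, which is 19.7% of the 66 against 13.4% of all genes. At least 1.5-fold lower were 0 genes, against 15.3% of all genes. The number higher was 6 with arrays centred on the median of all genes, or 9.09% against 10.6% of all genes, so the excess over all genes was not present under that scaling. It was 18 after quantile normalization, 27 after a smooth trend on mean level was taken out of each array, and 33 with arrays centred on the mature adipocyte genes. That centring used the list's median level, which on each array was the value of Cidec. The adipocyte list was therefore not fully aligned by it. Its median difference afterwards was 0.00 and -0.13 for overload under vehicle and GW4869, and -0.35 and -0.51 for GW4869 in sham and overload. The median of the ribosomal protein genes stayed positive under every scaling tried, between 0.24 under all-gene centring and 0.58 under adipocyte centring. Centring on all genes shifted the median gene of this comparison to -0.14, and centring on adipocyte genes to 0.21. In each case the ribosomal protein genes lay 0.38 above it by construction, since centring moves every gene of an array alike. They lay 0.43 above it after quantile normalization and 0.44 after removal of the trend on level. Of the epididymal epithelium genes, 18 were at or above the floor in GW4869 overload and 4 in GW4869 sham. The mature adipocyte list had a median of -0.38 in this comparison as deposited. The part of both lists in these differences was not tested.

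The stalk of the large subunit, which recruits elongation factors, had the largest median of the classes, 0.85 over its 2 genes. Rplp0, its base, had log2 values of 14.09 on GW4869 overload, 13.04 on GW4869 sham, 13.09 on vehicle overload and 13.38 on vehicle sham. That is 1.05 log2 units higher in GW4869 overload than in GW4869 sham, or 2.06-fold. Its partner Rplp1 had 17.70 on GW4869 overload, 17.05 on GW4869 sham, 16.76 on vehicle overload and 16.96 on vehicle sham, a difference of 0.66. For both, GW4869 overload was the highest array and the other 3 lay within 0.34 log2 units of each other.

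Rpsa, a small subunit protein also known as a laminin receptor precursor, had 13.68 on GW4869 overload, 12.69 on GW4869 sham, 12.92 on vehicle overload and 12.65 on vehicle sham, a difference of 0.99 under GW4869. Its GW4869 overload value stood apart and the other 3 arrays were close together. Among large subunit genes, Rpl37 had 13.82 on GW4869 overload, 12.95 on GW4869 sham, 12.91 on vehicle overload and 13.13 on vehicle sham, a difference of 0.87. Rpl5 had 16.39 on GW4869 overload, 15.69 on GW4869 sham, 15.64 on vehicle overload and 15.72 on vehicle sham, a difference of 0.70. Rpl8 had 15.22 on GW4869 overload, 14.52 on GW4869 sham, 14.62 on vehicle overload and 14.49 on vehicle sham, also a difference of 0.70. In these 3 genes too the GW4869 overload array was the only high one. The other genes at least 1.5-fold higher were Rpl6, Rpl17, Rpl23, Rps20, Rps26, Rps27rt and Rps29, with differences of 0.59 to 0.77.

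All 22 small subunit genes had positive differences under GW4869, from 0.05 to 0.99 with a median of 0.39. Of the 31 large subunit genes 28 did, with a median of 0.32 and a range of -0.25 to 0.87. The 6 genes with negative differences were Rpl22l1 (-0.31), Rpl27 (-0.25), Rpl36al (-0.11), Rpl32l (-0.08), Rpl38 (-0.06) and Rpl37a (-0.02), of which 3 are paralogs or retrogenes. Rpl38, which in mice is needed for the translation of a subset of Hox mRNAs, had 14.92 on GW4869 overload, 14.99 on GW4869 sham, 14.47 on vehicle overload and 14.82 on vehicle sham. Its GW4869 overload and sham readings were nearly equal. Rpl27, a large subunit gene mutated in some cases of Diamond-Blackfan anaemia, had 8.43 on GW4869 overload, 8.69 on GW4869 sham, 8.22 on vehicle overload and 8.26 on vehicle sham, with GW4869 sham the highest array. Rpl37a had 11.88 on GW4869 overload, 11.91 on GW4869 sham, 11.62 on vehicle overload and 11.32 on vehicle sham, so both GW4869 arrays were alike and lay above the vehicle arrays.

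Under vehicle the same genes showed no common direction between overload and sham. Their median difference was -0.02 log2 units, with 31 positive and 35 negative, while the median of all genes was 0.26 and 64.2% of all genes were positive. At least 1.5-fold higher were 7 genes, or 10.6%, against 30.2% of all genes, and 3 were as much lower, or 4.55%, against 16.9%. The 3 were Rpl39l, Rpl6 and Rps26, and Rpl39l passed the floor only through its vehicle sham value. The split between higher and lower depended on the scaling. It was 24 higher and 1 lower with arrays centred on all genes, 2 and 17 when centred on adipocyte genes, and 2 and 10 after removal of the trend on level. Those scalings put the median gene of the comparison at 0.73, -0.09 and -0.02, and the ribosomal protein genes lay below it by 0.27, 0.27 and 0.13. The equal values of 0.27 follow by construction, since centring moves every gene of an array alike.

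**Figure D2:**
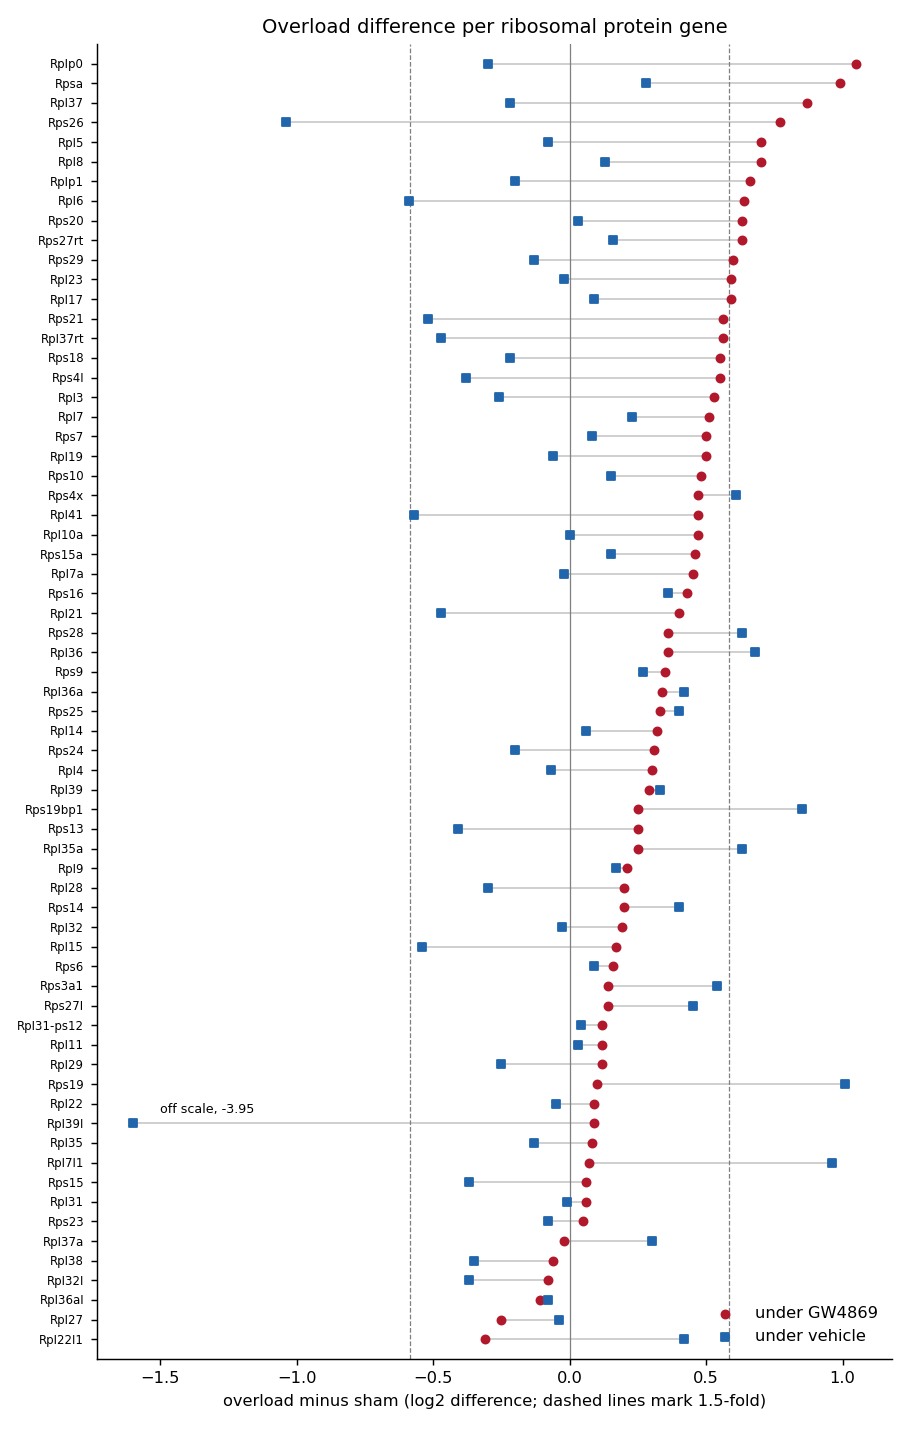
Each row is a ribosomal protein gene above the floor, ordered by its overload minus sham log2 difference under GW4869 (red circles), with the difference under vehicle as blue squares and dashed lines at 1.5-fold. Nearly all circles lie right of 0 (60 of 66), the squares scatter around 0, and Rpl39l is drawn at the left edge because its vehicle value is off the scale.

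Rps19, the small subunit protein most often mutated in Diamond-Blackfan anaemia, was the highest under vehicle, with 12.43 on GW4869 overload, 12.33 on GW4869 sham, 12.36 on vehicle overload and 11.35 on vehicle sham. Its difference was 1.01, and it came from a low vehicle sham reading, since the other 3 arrays were within 0.10 log2 units. Rpl36 had 10.28 on GW4869 overload, 9.92 on GW4869 sham, 10.21 on vehicle overload and 9.52 on vehicle sham, a difference of 0.68. Rps28, near the mRNA exit site, had 12.37 on GW4869 overload, 12.01 on GW4869 sham, 12.23 on vehicle overload and 11.59 on vehicle sham, a difference of 0.63. Rpl36, Rps28, Rpl35a (0.63) and Rps4x (0.61) were the other ribosomal proteins at least 1.5-fold higher. All had their lowest value on vehicle sham, as 45.9% of all genes did, and choosing genes by this difference favours it. Rpl7l1, a nucleolar relative of Rpl7, and Rps19bp1, a partner of Rps19 and Sirt1, were 0.96 and 0.85 higher. Rpl7l1 had 10.97 on GW4869 overload, 10.90 on GW4869 sham, 11.20 on vehicle overload and 10.25 on vehicle sham, and Rps19bp1 had 8.27 on GW4869 overload, 8.02 on GW4869 sham, 8.49 on vehicle overload and 7.64 on vehicle sham. Both were highest on vehicle overload and lowest on vehicle sham.

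Rps26, which lies at the mRNA exit site of the small subunit, had the lowest difference under vehicle of the genes of large subunit, small subunit and stalk proteins. It had 13.73 on GW4869 overload, 12.95 on GW4869 sham, 12.33 on vehicle overload and 13.37 on vehicle sham. The overload difference was 0.77 under GW4869 and -1.04 under vehicle, so both overload arrays were the extremes, in opposite directions. With arrays centred on all genes the value under vehicle was -0.57, short of 1.5-fold. Rpl6, a large subunit protein, had 16.26 on GW4869 overload, 15.62 on GW4869 sham, 15.65 on vehicle overload and 16.24 on vehicle sham, with overload differences of 0.64 under GW4869 and -0.59 under vehicle, and -0.11 under vehicle with arrays centred on all genes. Rpl6 was high on GW4869 overload and vehicle sham, and low on the other arrays. Rpl41 (-0.57), Rpl15 (-0.54) and Rps21 (-0.52) were the next lowest under vehicle and were all positive under GW4869. Rpl41, the smallest ribosomal protein, had 16.92 on GW4869 overload, 16.46 on GW4869 sham, 16.31 on vehicle overload and 16.88 on vehicle sham. Rps21 had 14.43 on GW4869 overload, 13.87 on GW4869 sham, 13.45 on vehicle overload and 13.98 on vehicle sham. In Rpl41 vehicle sham lay close to GW4869 overload, while in Rps21 the GW4869 overload array stood above the other 3. Rpl15, which is shown above with its ETS core, had 16.30 on GW4869 overload, 16.13 on GW4869 sham, 15.51 on vehicle overload and 16.04 on vehicle sham, and vehicle overload was its only low array.

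Across the 66 genes the overload differences under vehicle and under GW4869, which share no array, had a Pearson r of -0.05 and of -0.23 without Rpl39l. The r is across genes, whose probe sets differ in level and sequence, and is given as a description. Of the 66 genes, 29 were higher in overload under both agents, 31 were lower under vehicle and higher under GW4869, 2 the reverse, and 4 lower under both. Of all genes 19.0% were lower under vehicle and higher under GW4869. The overload difference under GW4869 exceeded that under vehicle for 49 of the 66 genes, with a median of 0.32, against 39.3% of all genes with a median of -0.27, but centring arrays on all genes turned the median of the ribosomal protein genes to -0.26. Relative to the median of all genes it was 0.59 higher as deposited, which both centrings leave unchanged by construction. It was 0.85 higher after quantile normalization and 0.59 higher after removal of the trend on level.

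By surgery, 15 of the 66 genes had both overload arrays above both sham arrays, which is 22.7% against 17.4% of all genes, and 0 had both below, against 10.1%. The count of 15 was 27 with arrays centred on all genes, and 9 with adipocyte centring or removal of the trend on level. The 15 included Rpsa, Rpl8, Rps20, Rpl17, Rps19, Rps28 and Rps25. By agent, a split chosen after the values were seen, 31 had both GW4869 arrays above both vehicle arrays, or 47.0% against 22.0% of all genes, and 1, Rps4l, had both below, against 11.2%. The count of 31 was 7 when arrays were centred on adipocyte genes and 18 after removal of the trend on level, so it depended on the scaling. Rpl36a, at 13.64 on GW4869 overload, 13.29 on GW4869 sham, 12.93 on vehicle overload and 12.51 on vehicle sham, was one of the 31. Rps14, whose loss underlies a human myelodysplastic syndrome, had 12.97 on GW4869 overload, 12.77 on GW4869 sham, 12.36 on vehicle overload and 11.95 on vehicle sham. In both genes GW4869 overload was the highest array and vehicle sham the lowest.

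GW4869 against vehicle in overloaded mice gave a median of 0.46 log2 units, against -0.04 for all genes. All 55 genes of large subunit, small subunit and stalk proteins were higher under GW4869, with a range of 0.08 to 1.40, against 47.0% of all genes with a positive difference. Centring arrays on all genes took the median of the 66 genes from 0.46 to 0.25 and lowered every gene alike. The smallest differences, such as those of Rps19 and Rpl36 (0.08 each), then became negative. At least 1.5-fold higher were 23 of the 66 genes, or 34.8%, against 18.4% of all genes, and 1 was as much lower (Rpl22l1, -0.68), against 18.8%. With arrays centred on all genes the number higher was 8, or 12.1% against 12.7% of all genes, so this excess too was not present under that scaling. Rps26 (1.40), Rplp0 (1.00), Rps21 (0.98) and Rplp1 (0.94) led. The median stayed between 0.25 with arrays centred on all genes and 0.58 after removal of the trend on level. The median gene moved to -0.26 with the first of these. This comparison and the overload comparison under GW4869 share the GW4869 overload array. The macrophage list was also higher on GW4869 overload than on vehicle overload, by a median of 1.44. Of 19 epididymal epithelium genes, 18 were at or above the floor on GW4869 overload and 2 on vehicle overload. The mature adipocyte list had a median of -0.61 in this comparison. The part of these lists was not tested. GW4869 sham and vehicle overload, the arrays with the fewest epididymal and sperm genes above the floor, were compared after the values were seen. The ribosomal protein genes had a median difference of 0.11 (GW4869 sham minus vehicle overload), and all genes had 0.00. These arrays differ in both agent and surgery, whose parts cannot be told apart. GW4869 sham held 5 distal epididymal markers above the floor and vehicle overload 0.

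In sham mice, the GW4869 minus vehicle median was 0.08, against 0.27 for all genes, and 43 of 66 genes were positive, or 65.2%, against 67.2% of all genes. At least 1.5-fold higher were 8 of 66 genes, or 12.1%, against 28.9% of all genes, and 3 were as much lower, or 4.55%, against 14.4%. The 3 include Rpl39l, which passed the floor only through its vehicle sham value. The split was 24 higher and 2 lower with arrays centred on all genes, 0 and 16 when centred on adipocyte genes, and 1 and 4 after removal of the trend on level. Rps19 (0.99), Rps14 (0.82), Rpl36a (0.78) and Rps4x (0.69) were the highest. The lowest were Rpl39l, Rps4l (-1.15), Rpl6 (-0.62) and Rpl41 (-0.43). The vehicle sham array enters this comparison and the overload comparison under vehicle, and it held the sperm transcripts, whose part in either was not tested.

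**Figure D3:**
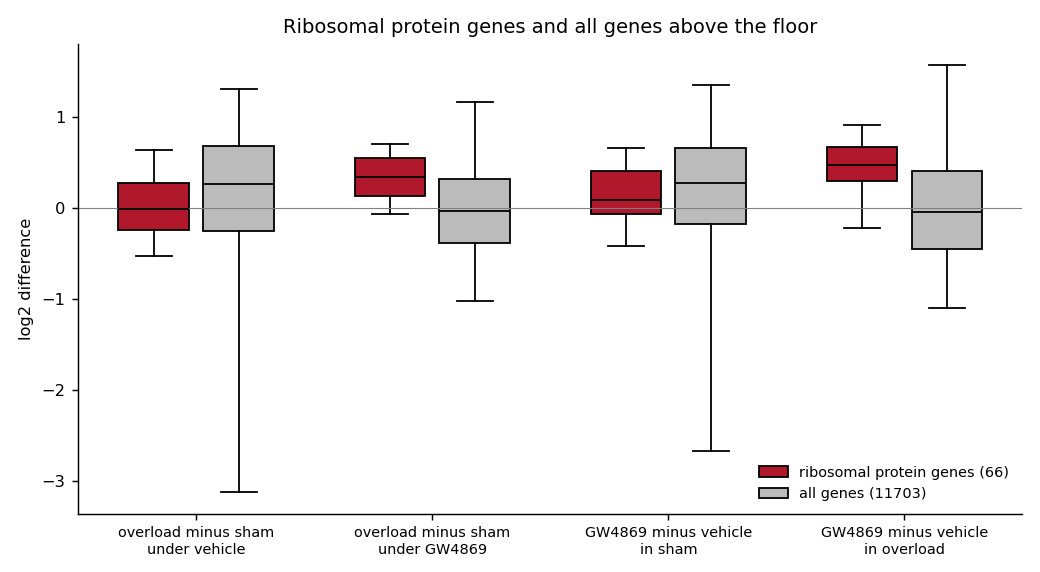
Log2 differences in the 4 comparisons for the 66 ribosomal protein genes (red) and all 11703 genes above the floor (grey), as boxes of quartiles with the median line and whiskers at the 5th and 95th percentiles. The red boxes are narrower than the grey ones, and those of the 2 comparisons with GW4869 overload lie above 0, with medians of 0.34 and 0.46.

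The paralogs and retrogenes were mixed: 6 of the 9 above the floor were higher in overload under GW4869, and some had patterns unlike those of their main genes. Rpl39l and Rpl10l are known for expression in the testis, where they stand in for Rpl39 and Rpl10 in male germ cells. Rpl39l had 4.01 on GW4869 overload, 3.93 on GW4869 sham, 3.65 on vehicle overload and 7.60 on vehicle sham, and Rpl10l had 4.07 on GW4869 overload, 3.77 on GW4869 sham, 3.74 on vehicle overload and 6.82 on vehicle sham. Both were under the floor on 3 arrays and above it on vehicle sham alone, the array on which 16 of 16 sperm genes were above the floor. Rpl39l reached the mean needed to count among the 66 only through vehicle sham. The background probe sets of the arrays had medians of 5.12 to 5.28 and reached 7.20, so all readings of Rpl10l lie within their span, and of Rpl39l only the vehicle sham one lies above it. No fold is given for either. Rpl39 itself, which lines the exit tunnel, had 13.80 on GW4869 overload, 13.51 on GW4869 sham, 13.29 on vehicle overload and 12.95 on vehicle sham, with its lowest value on vehicle sham. Rpl3l, known from heart and skeletal muscle, was under the floor on all 4 arrays (2.24 to 3.03), while Rpl3, at the peptidyl transferase centre, had 15.39 on GW4869 overload, 14.86 on GW4869 sham, 14.85 on vehicle overload and 15.10 on vehicle sham.

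Rpl22l1, the paralog whose expression Rpl22 represses in mice, had the lowest difference of the 66 genes in both comparisons that hold GW4869 overload. It had 8.70 on GW4869 overload, 9.02 on GW4869 sham, 9.38 on vehicle overload and 8.97 on vehicle sham. It was lowest on GW4869 overload and highest on vehicle overload, 0.42 higher in overload under vehicle and 0.31 lower in overload under GW4869 on the log2 scale. Rpl22 had 15.50 on GW4869 overload, 15.42 on GW4869 sham, 15.07 on vehicle overload and 15.13 on vehicle sham, with its highest value on GW4869 overload. Rps27l, a p53 target, was highest on vehicle overload (10.46), and the other 3 arrays were between 9.99 and 10.13. Rps4l, a transcribed pseudogene in RefSeq, had 8.12 on GW4869 overload, 7.58 on GW4869 sham, 8.34 on vehicle overload and 8.73 on vehicle sham, and was higher on both vehicle arrays than on both GW4869 arrays. Rps4x, its X-linked relative, had 12.99 on GW4869 overload, 12.52 on GW4869 sham, 12.44 on vehicle overload and 11.83 on vehicle sham, in the opposite arrangement.

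The retrogenes Rpl37rt and Rps27rt had overload differences of 0.56 and 0.63 under GW4869, and -0.47 and 0.16 under vehicle. Rpl37 had 0.87 and -0.22. Ribosomal protein genes have many processed copies, and probes can read near-identical ones, so values of these 2 retrogenes, Rpl31-ps12 (0.12 and 0.04), Rpl32l (-0.08 and -0.37) and Rpl36al (-0.11 and -0.08) are uncertain as measures of a single locus. Rps23rg1 was above the floor on vehicle overload alone (4.93), within the span of background.

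**Figure D4:**
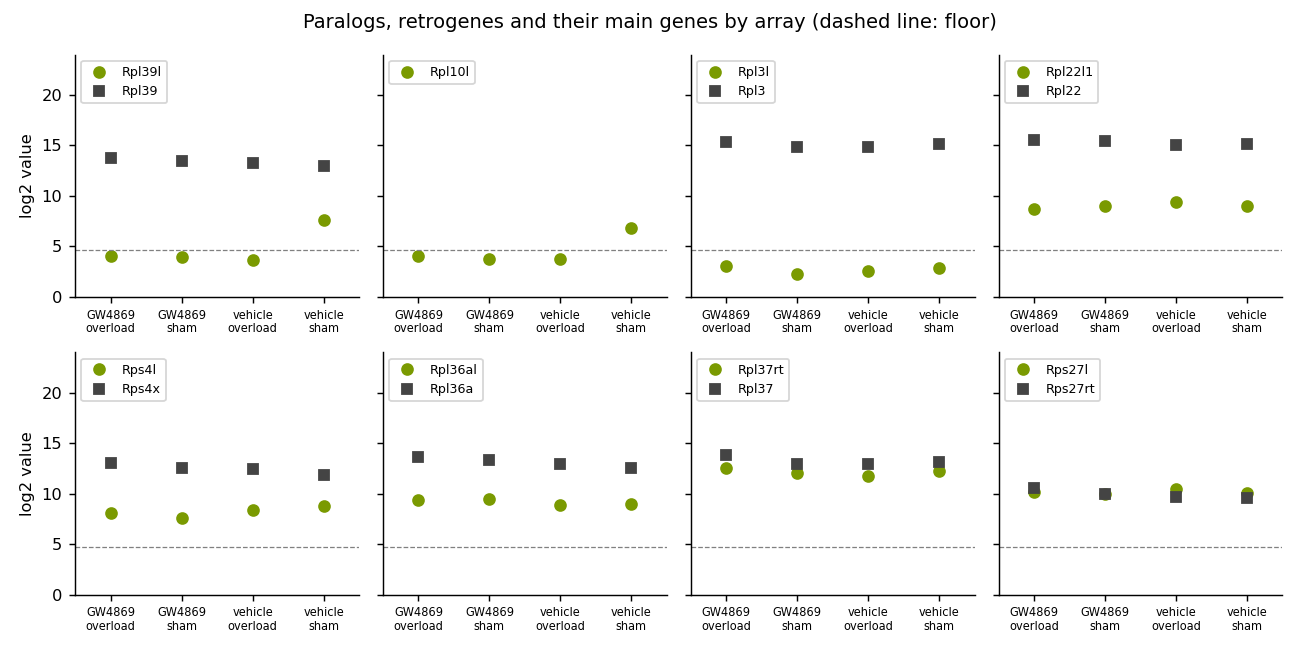
Log2 values on the 4 arrays for paralogs or retrogenes (green circles) and main genes or a second relative (grey squares), with the floor of 4.67 as a dashed line. Levels of different probe sets are not comparable, and the pattern over arrays is what the panels show: Rpl39l (7.60) and Rpl10l (6.82) lie above the floor on vehicle sham alone.

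Other genes of protein synthesis were described from lists of known members. Of 30 translation initiation and elongation factors above the floor, 25 were higher in overload under GW4869, with a median of 0.28, 3 at least 1.5-fold higher (Eif2s2 0.86, Eif6 0.85 and Pabpc1 0.63) and 1 lower (Eif1ax -0.90). Those are 10% and 3.33%, against 13.4% and 15.3% of all genes. Eef2, which moves the ribosome along the mRNA, had 0.28. Of 9 other genes with TOP mRNAs, 7 were higher, with a median of 0.27, and Tmem97, a membrane protein of the endoplasmic reticulum, alone at least 1.5-fold higher (0.79), or 11.1% against 13.4%. The others included Tpt1 (0.42), Fau (0.38), which encodes a ribosomal protein fused to a ubiquitin-like one, and Npm1 (0.30). Ribosome biogenesis genes had a median of 0.30 over 47, with 9 at least 1.5-fold higher and 0 lower, or 19.1% and 0%, against 13.4% and 15.3% of all genes. Nmd3, an export adaptor of the large subunit, had the largest difference (1.13). Its GW4869 sham reading of 6.31 lies within the span of background. The 9 included Ncl (0.92), the nucleolar protein nucleolin. The medians of these 3 lists were positive under each scaling tried in this comparison, at 0.16 to 0.55.

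Mitochondrial ribosomal protein genes, whose products make the proteins of the mitochondrial genome, had a median of the opposite sign. Of the 74 above the floor, 26 were higher in overload under GW4869 and 48 lower, with a median of -0.17, 1 at least 1.5-fold higher (Mrps24 0.78) and 8 lower (lowest Mrpl32 -0.80), although centring on adipocyte genes turned the median to 0.07. The shares higher and lower were 1.35% and 10.8%, both under those of all genes (13.4% and 15.3%). Under vehicle 59 of 74 were higher, with a median of 0.39, 27 at least 1.5-fold higher and 2 lower. That median was 0.86 with arrays centred on all genes, 0.04 with adipocyte centring and 0.08 after removal of the trend on level. Mrpl16 (1.59), Mrps5 (1.51), Mrps24 (1.38) and Mrps15 (1.32) were the highest. The vehicle sham readings of Mrpl16 (6.43) and Mrps24 (6.70) lie within the span of background. Of the 74 genes, 36.5% were higher and 2.70% lower by at least 1.5-fold under vehicle, against 30.2% and 16.9% of all genes. For GW4869 minus vehicle in overload, where the cytosolic genes were at 0.46, the mitochondrial genes had a median of -0.26, with 2 at least 1.5-fold higher and 14 lower. The 14 are 18.9%, close to the 18.8% of all genes, and the 2 are 2.70%, against 18.4%. Mrps15 had the lowest difference (-1.47).

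A list of mTOR pathway genes, both activating and restraining, with other Rps6k family kinases, had a median of 0.04 over 18 genes in GW4869 overload against sham. Of these, 0 were at least 1.5-fold higher and 1 was lower, Eif4ebp1 (-0.71), a repressor of cap-dependent initiation. The 1 is 5.56%, against 15.3% of all genes. Under vehicle their median was 0.62, with 10 at least 1.5-fold higher and 1 lower, or 55.6% and 5.56%, against 30.2% and 16.9% of all genes. That median was 1.09 with arrays centred on all genes, 0.27 with adipocyte centring and 0.33 after removal of the trend on level. Eif4ebp1 was 1.18 higher. The 10 held other restraining genes (Sesn1 0.95, Tsc2 0.82) beside activating or effector genes (Rheb 0.65, Rps6kb2 0.66), so they do not describe 1 direction of the pathway. They also held Rps6ka3 (0.59) and Rps6ka5 (0.76), which are not S6 kinases of this pathway. The 10 include Rps6kc1, a kinase-like relative of the S6 kinases, whose readings of 5.35 on vehicle overload and 4.07 on vehicle sham lie within the span of background, so no fold is given. Larp1 had 0.04 and -0.28 under GW4869 and vehicle. Myc, a driver of ribosome synthesis, had log2 values of 9.83 on GW4869 overload, 9.94 on GW4869 sham, 8.44 on vehicle overload and 6.79 on vehicle sham. Its vehicle sham reading lies within the span of background. It was higher on both GW4869 arrays, as the macrophage list was, and its order over the arrays was not that of the ribosomal protein genes.

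**Figure D5:**
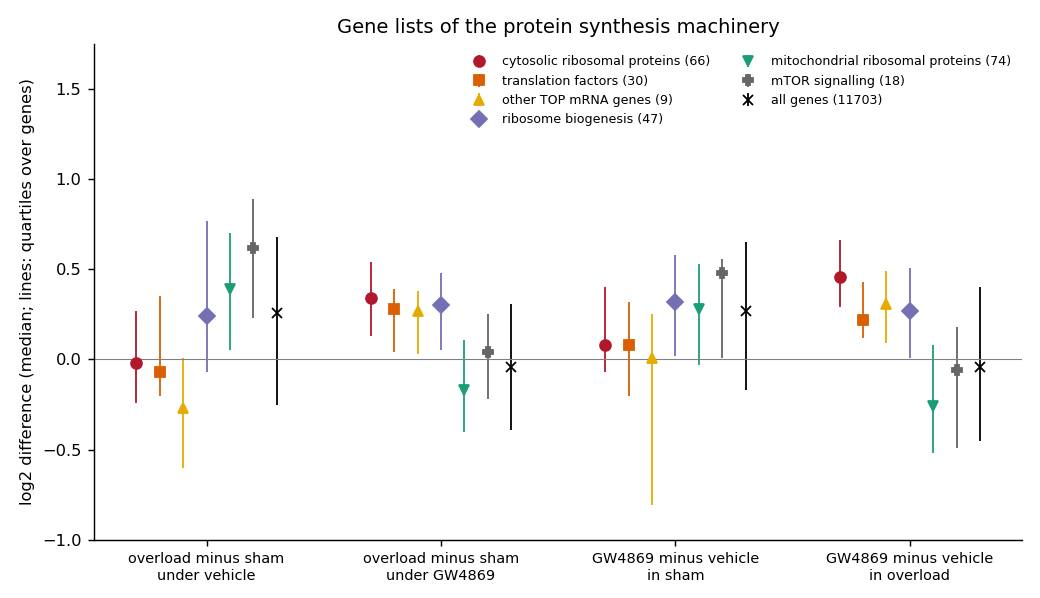
Median log2 difference (marker) with quartiles over genes (line) for 6 gene lists of protein synthesis and for all genes above the floor in the 4 comparisons, with gene numbers in the legend. Cytosolic ribosomal proteins (red circles) are the highest list in both comparisons that hold GW4869 overload (0.34 and 0.46), where mitochondrial ribosomal proteins (green triangles) are the lowest (-0.17 and -0.26).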

How the data were processed

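The authors deposited 1 log2 value for each probe set and array. Per the submitters' processing notes they used RMA in Partek, and the labels state neither version nor settings. These values span 1.16 to 19.93, and the upper end lies above what RMA ordinarily gives from a scanner. The step that produced it is unknown, so levels and differences of highly expressed genes are on a scale that may not be plain log2 intensity. Probe sets with 1 symbol in the platform annotation (19572, and 0 with several) gave 19505 genes, keeping the probe set with the highest mean. All 69 ribosomal protein genes were found in RefSeq by Entrez ID. Differences of log2 values were taken between arrays, and genes at least 1.5-fold apart were counted beside the same count over all genes above the floor. The number of arrays, 1 per group, limits the precision. The counting was checked on simulated data. Members and lists were chosen with earlier results of these data known. Genes named are the 6 highest and 6 lowest per overload comparison, the 4 highest and 4 lowest in the others, stalk genes, Rps6, paralogs with their main genes, and up to 4 of each related list. Rps23, Rpl11, Larp1 and Eef2 were added after their values were seen. Python 3.11.15, pandas 2.3.3 and statsmodels 0.14.6 (lowess) were used. Alternatives were other scalings, filters, member sets and thresholds.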

Additional observations from a re-analysis of the deposited data

Results flagged for a closer look

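For 2 genes the overload difference was at least 1.5-fold in opposite directions under GW4869 and under vehicle. Rps26 had 0.77 under GW4869 and -1.04 under vehicle, which lie 1.82 log2 units apart. Rpl6 had 0.64 and -0.59, which lie 1.22 apart. With arrays centred on the median of all genes, the values under vehicle were -0.57 for Rps26 and -0.11 for Rpl6, both short of 1.5-fold. With 1 array in a group the difference was not tested for either gene.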

How the results depend on the processing

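With arrays centred on the median of all genes, the medians of ribosomal protein genes were 0.46 for overload with vehicle, 0.24 for overload with GW4869, 0.44 for GW4869 in sham mice and 0.25 for GW4869 in overloaded mice. The overload difference with GW4869 minus that with vehicle reversed to -0.26. In the same order, centring on adipocyte genes, in effect on Cidec, gave -0.37, 0.58, -0.42 and 0.56, with 0.91 for the difference between differences. Trend removal gave -0.15, 0.48, -0.10 and 0.58, with 0.68. Under all-gene centring, 24, 6, 24 and 8 genes were at least 1.5-fold higher, and 1 was lower in overload under vehicle. Under adipocyte centring, overload under vehicle had 2 higher and 17 lower, overload under GW4869 had 33 higher, and GW4869 in sham had 0 higher and 16 lower. Trend removal gave 2 higher and 10 lower for overload under vehicle, 27 higher for overload under GW4869 and 1 higher for GW4869 in sham. Both overload arrays lay above both sham arrays for 27, 9 and 9 genes under these 3 scalings, and below for 1, 1 and 2. Both GW4869 arrays lay above both vehicle arrays for 7 genes with adipocyte centring and 18 with trend removal, and below for 3 in each. Without the filter, GW4869 against vehicle had 5 genes lower in sham and 2 in overload. Without paralogs and genes of other proteins these were 1 and 0, and 0 genes had both GW4869 arrays below. At 2-fold, 1, 1, 0 and 1 genes were higher in the 4 comparisons and 0 lower for GW4869 in overload. A scaling adds the same amount to every gene of an array, or to genes of like level, which moves counts by construction; for the other settings fewer or more genes were counted. Between GW4869 sham and vehicle overload, which differ in both agent and surgery, the median was 0.11, in a comparison chosen after seeing the data. Over all the alternatives, 103 main values and 264 others moved by less than 0.1 log2 units, or by less than 1.5 times for counts. More movement was seen for 48 and 145, and the 1 reversal is the one given. The others are single genes, counts of genes highest on arrays other than GW4869 overload, and GW4869 sham against vehicle overload. Medians under 0.1 in size that changed sign, such as that of GW4869 in sham mice (0.08 as deposited), counted as moved and not as reversed. No paired analysis was possible because each group has 1 array. Leaving out an array leaves no comparison. Signal over background limits low genes, since background probe sets reached 7.20.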
